A study of Homo sapiens with 6 samples.

Results

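The genes described here are ISG15, the ubiquitin-like modifier that interferon induces, the enzymes that attach and remove it, and 3 antiviral effectors induced beside it. They were chosen by name, with earlier results of these data known. They are ISG15, its activating enzyme UBA7 (E1), its conjugating enzyme UBE2L6 (E2) and the ligases HERC5 and HERC6 (E3). Also included are the ISG15 protease USP18, the exonuclease ISG20, the antiviral enzyme RSAD2 (viperin) and the mitochondrial nucleotide kinase CMPK2. All 9 had a row among the 21173 genes of the count table, and all 9 passed the filter on low counts that left 14431 genes for testing. The RNA came from TPC1, a human papillary thyroid carcinoma line with a RET fusion. A group of 3 libraries was made from cells with a vector, genotype WT, and a group of 3 from cells that overexpress TFCP2L1 (genotype TFCP2L1 OE), a CP2-type transcription factor. The labels name no other agent or treatment for either group, and the sources used here do not say how TFCP2L1 was delivered or whether the cells were a pool or a clone.

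ISG15 is made as a precursor, is activated by UBA7, passed to UBE2L6 and joined to lysines of newly made proteins, in human cells chiefly by HERC5. USP18 cuts ISG15 from its targets and, apart from that activity, binds the interferon receptor chain IFNAR2 with STAT2 and dampens interferon signalling. RSAD2 is a radical SAM enzyme that converts CTP into a chain-terminating nucleotide, and CMPK2, encoded beside it, phosphorylates nucleoside monophosphates in mitochondria. ISG20 degrades single-stranded RNA. In most cell types the genes are induced through interferon-stimulated response elements (ISREs), promoter sequences bound by interferon-activated transcription factors.

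The promoter windows of these genes show that element in some members. RefSeq windows on GRCh38.p14, each of 300 bases, were at hand for 7 of the 9 genes, with more than 1 annotated start for some. The ISRE core was searched on both strands as GAAA, a spacer of 2 bases of any kind and GAAA again, and 4 of the 7 genes held it: ISG15, HERC5, ISG20 and RSAD2. A match in some window was found for 4.38% of all 27305 genes with RefSeq promoters. The gamma-activated site TTCNNNGAA was in none of the 7, and 9.38% of all genes held it. The matches are shown because the 4 genes that carry them moved by different amounts, and capitals mark the match. The HERC5 stretch ends at the annotated start, and the other 3 lie before it. A match is a run of letters and does not show binding.
ISG15, chr1:1013377-1013406, plus strand: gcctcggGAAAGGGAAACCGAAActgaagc
RSAD2, chr2:6877622-6877651, plus strand: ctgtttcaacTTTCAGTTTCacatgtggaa
ISG20, chr15:88638937-88638966, plus strand: taacaaactaGAAACTGAAAcagggtcggg
HERC5, chr4:88456959-88457118, plus strand: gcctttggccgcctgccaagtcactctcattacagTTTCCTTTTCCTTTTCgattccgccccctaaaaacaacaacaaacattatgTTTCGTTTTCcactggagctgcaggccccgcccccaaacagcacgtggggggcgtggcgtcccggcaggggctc

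ISG15 carried 2 overlapping matches and HERC5 carried 3, of which 2 overlapped. The HERC5 and RSAD2 matches read on the opposite strand. The windows of UBE2L6, HERC6 and CMPK2 did not hold these letters.

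Library totals ran from 37928516 to 38987434 reads, and 17805 to 18102 genes had a read. Reads of TFCP2L1 itself numbered 0, 0 and 1 with the vector and 13578, 13885 and 12333 with TFCP2L1. Mitochondrially encoded genes took 5.13% to 6.72% of reads in vector and 5.19% to 7.59% in TFCP2L1 libraries, being highest in the second vector and the third TFCP2L1 library. Of 12 thyroid and epithelial markers, PAX8, FOXE1, HHEX, KRT8 and KRT18 were expressed, while TG had 29 to 56 reads and SLC5A5 and EPCAM between 0 and 20. Leukocyte markers summed to 70.1 to 84.97 RPM (reads scaled to library total, without TMM) in vector and 99.7 to 126 in TFCP2L1 libraries. Of the 12 listed 3 were tested: CD68, a lysosomal protein of many cells that held most of these reads, rose, ITGAX fell and ITGAM was not called (-0.25 ± 0.57). The defining leukocyte gene PTPRC was too low to test, with 0 to 7 reads. Fibroblast markers summed to 104 to 117 RPM in vector and 80.9 to 91.3 in TFCP2L1 libraries, with a median log2 fold change of -0.42 over the 4 tested. Of these 1 was called, FBLN1, an extracellular matrix protein, which fell (-0.41 ± 0.08; edgeR adjusted p = 0.00232). Endothelial markers summed to 49.1 to 51.2 RPM in vector and 42.3 to 68.4 in TFCP2L1 libraries, and of the 2 tested none was called. The part of these markers in the results was not tested. Nothing in the labels ties replicates to separate cultures, so the p-values reflect the spread among these libraries alone, and that spread may be technical.

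In TFCP2L1 cells ISG15, UBE2L6, USP18, RSAD2 and CMPK2 rose, HERC5, HERC6, UBA7 and ISG20 were not called, and no member fell. Counts were compared by edgeR's quasi-likelihood test and a gene was called where its p, adjusted over all tested genes by Benjamini and Hochberg, was under 0.05. By that rule 5 of the 9 members were called higher, against 4.63% of all tested genes, and 0 were called lower, against 6.94%. The members were chosen with earlier results of these data known, so the shares given here are description and not a test. The members' median log2 fold change was 0.40, and that of all tested genes was 0.00259. For 6 members the 3 TFCP2L1 libraries all lay above the 3 vector libraries, against 14.4% of tested genes, and for 0 members all lay below, against 15.6%. USP18 and CMPK2, 2 members, were called at a fold of 2 or more, against 0.561% of tested genes. The rises were unequal, from 1.32-fold for ISG15 to 5.34-fold for CMPK2. In bulk RNA a larger share of expressing cells and more RNA per cell cannot be told apart.

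**Figure D1:**
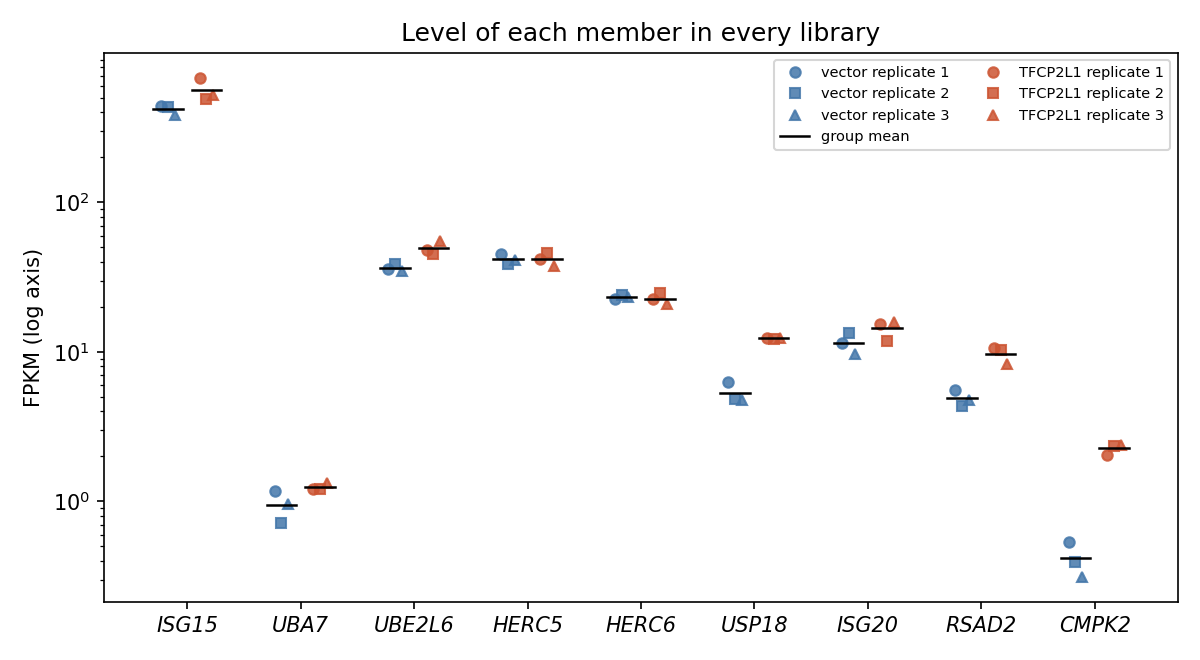
Level of each of the 9 genes in FPKM (reads per kilobase of gene, scaled to library total, log axis) in the 3 vector and 3 TFCP2L1 libraries, with replicates by symbol and group means as black lines. ISG15 is highest at 384 to 679 FPKM, USP18, RSAD2 and CMPK2 separate clearly by group, and HERC5 and HERC6 overlap.

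ISG15 itself was among the most abundant transcripts before any change. Per gene length, its mean level was 419 ± 30.6 FPKM (SD, n = 3) in vector cells, rank 109 of all genes in the table, and 566 ± 99.6 FPKM in TFCP2L1 cells, rank 80. Scaled to library size (CPM), it was at 281, 281 and 246 in vector replicates 1 to 3 and 425, 313 and 332 in TFCP2L1 replicates 1 to 3. The groups did not overlap, and TFCP2L1 replicate 1 stood well above the other two. The log2 fold change was 0.40 ± 0.10 (SE; 95% interval 0.18 to 0.63; edgeR adjusted p = 0.0198). The call was lost when certain single libraries were left out, in fits with fewer samples. The edgeR adjusted p was 0.0531 without vector replicate 1, where the log2 fold change was 0.44 ± 0.12. It was 0.122 without vector replicate 3 (0.34 ± 0.12) and 0.0942 without TFCP2L1 replicate 1, where the log2 fold change fell to 0.26. The position of the gene in GENCODE v29 on GRCh38 is chromosome 1, 1001138 to 1014540, plus strand, and an antisense gene covers 3.83% of its exon bases.

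The E1 gene UBA7 (chromosome 3, 49805207 to 49813946, minus strand) was the scarcest part of the conjugation system. It was at 3.90, 2.41 and 3.19 CPM in vector and 3.92, 3.95 and 4.38 CPM in TFCP2L1 cells, from 91 to 168 reads per library. The groups just failed to overlap, with vector replicate 1 beside the lowest TFCP2L1 library. Its log2 fold change of 0.37 ± 0.21 was not called (edgeR adjusted p = 0.306), and the 95% interval ran from -0.08 to 0.81. The estimate lay close to those of ISG15 and UBE2L6, with a standard error more than 2 times theirs.

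The E2 gene UBE2L6 (chromosome 11, 57551656 to 57568284, minus strand) rose by nearly the same amount as ISG15. It was at 47.5, 51.0 and 45.9 CPM in vector and 61.5, 58.9 and 71.4 CPM in TFCP2L1 cells. All TFCP2L1 libraries were above all vector libraries, with TFCP2L1 replicate 3 the highest. The log2 fold change was 0.41 ± 0.09 (95% interval 0.22 to 0.60; edgeR adjusted p = 0.00619), and the adjusted p was 0.0538 without vector replicate 3.

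Neither ligase gene was called. HERC5 (chromosome 4, 88457117 to 88506163, plus strand), the main ISG15 ligase of human cells, was at 184, 160 and 168 CPM in vector and 167, 183 and 152 CPM in TFCP2L1 cells. The groups overlapped fully, and the log2 fold change of -0.03 ± 0.08 had a 95% interval of -0.21 to 0.15, which corresponds to a fold of 0.866 to 1.11 (edgeR adjusted p = 0.875). HERC6 lies 14005 bases before HERC5 on the same strand (chromosome 4, 88378739 to 88443111) and is the ligase that serves ISG15 in mice. It was at 95.5, 102 and 98.2 CPM in vector and 92.2, 102 and 86.6 CPM in TFCP2L1 cells, again with overlap, and its log2 fold change was -0.07 ± 0.08 (interval -0.24 to 0.10; edgeR adjusted p = 0.622). Both intervals end below the change of USP18 and RSAD2. The 4 other HERC genes were not called either, among them the flanking HERC3 (0.15 ± 0.11 on the log2 scale), nor was PPM1K on the other side (-0.06 ± 0.10).

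The protease gene USP18 (chromosome 22, 18149899 to 18177397, plus strand) more than doubled its fitted level. It was at 13.9, 10.8 and 10.6 CPM in vector and 26.9, 26.9 and 27.4 CPM in TFCP2L1 cells. The TFCP2L1 libraries were nearly identical, with a coefficient of variation of 0.800% of FPKM against 16.1% in vector, and the groups were far apart. The 1051, 1055 and 1049 reads of the TFCP2L1 libraries lie closer together than counting alone would usually give. The difference in spread between the groups was not tested. The log2 fold change was 1.199 ± 0.12 (95% interval 0.95 to 1.45; edgeR adjusted p = 4.52e-06), higher than in all but 0.845% of tested genes. The call held without each single library, with adjusted p up to 0.000180. Of the 50-base words in USP18 transcripts, 23.0% also occur in those of USP41, a near copy on the same chromosome, so reads from these stretches cannot be placed with certainty. The neighbour TUBA8 was not called (-0.73 ± 0.35; edgeR adjusted p = 0.211).

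**Figure D2:**
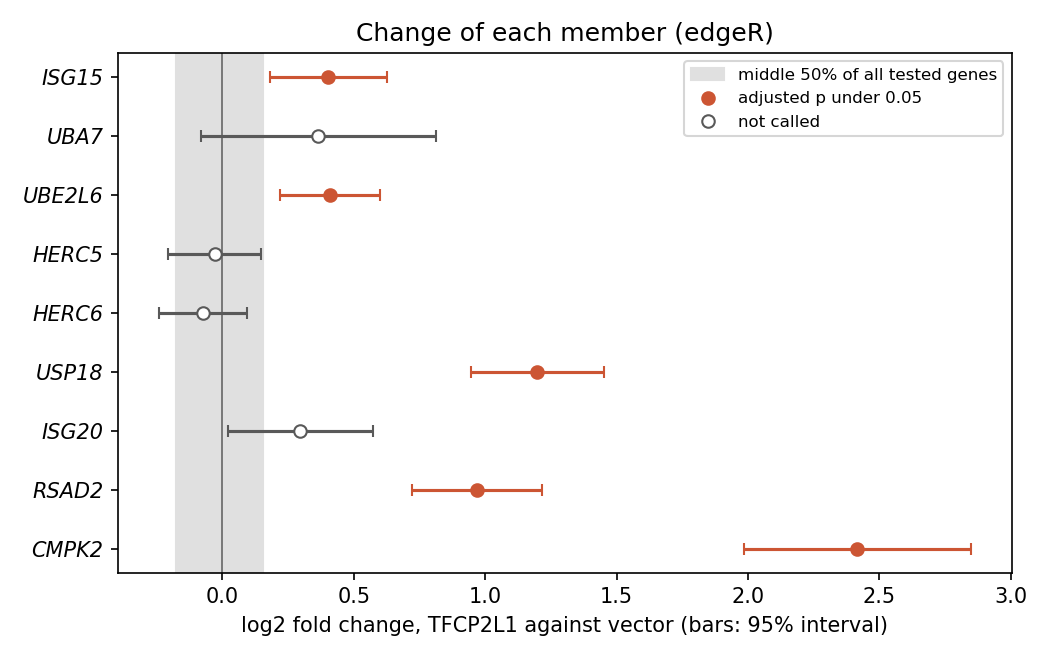
Log2 fold change of TFCP2L1 against vector cells for each gene from edgeR, with 95% intervals; filled points passed an adjusted p of 0.05 and the grey band is the middle 50% of all tested genes. USP18, RSAD2 and CMPK2 lie at 1.199, 0.97 and 2.42, and the narrow intervals of HERC5 and HERC6 lie about 0.

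ISG20 was intermediate. The gene (chromosome 15, 88636153 to 88656483, plus strand) was at 43.4, 50.7 and 36.3 CPM in vector and 56.8, 44.3 and 59.2 CPM in TFCP2L1 cells, and vector replicate 2 lay above TFCP2L1 replicate 2. The log2 fold change of 0.30 ± 0.13 was not called (95% interval 0.02 to 0.57, before adjustment; edgeR adjusted p = 0.165). Leaving out either of these 2 libraries gave a call, with adjusted p of 0.0407 without vector replicate 2 and 0.0376 without TFCP2L1 replicate 2. Among other 3′ exonucleases and SAMHD1, a dNTP hydrolase that restricts viruses, 1 of the 9 tested genes was called, against 11.6% of all tested genes. That gene was SAMHD1, with 1876, 1837 and 1891 reads in vector and 3224, 3444 and 3230 in TFCP2L1 libraries, a log2 fold change of 0.78 ± 0.07 (edgeR adjusted p = 2.96e-06). The adjacent exonuclease gene AEN (-0.10 ± 0.09; edgeR adjusted p = 0.504) was not called.

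RSAD2 and CMPK2 both rose, and CMPK2 showed the largest change of the members. RSAD2 (chromosome 2, 6865806 to 6898239, plus strand) was at 20.7, 16.5 and 17.8 CPM in vector and 39.1, 37.8 and 30.8 CPM in TFCP2L1 cells. The groups were clearly separate, and the log2 fold change was 0.97 ± 0.12 (95% interval 0.72 to 1.22; edgeR adjusted p = 3.47e-05). CMPK2 (chromosome 2, 6840570 to 6866635, minus strand) had 82, 61 and 48 reads in vector and 315, 367 and 369 reads in TFCP2L1 libraries, or 1.69 ± 0.460 and 9.02 ± 0.833 CPM. Its lowest TFCP2L1 library was well above its highest vector library. The log2 fold change was 2.42 ± 0.20 (95% interval 1.98 to 2.85; edgeR adjusted p = 6.97e-07), rank 17 of all tested genes, and on log2(FPKM + 1), where low genes are compressed, the difference was 1.21. Both calls held without each single library, with adjusted p up to 0.001003 for RSAD2.

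In GENCODE v29 the 2 genes lie head to head and their outermost 5′ ends overlap, and 0.290% of the exon bases of RSAD2 are antisense to CMPK2. The RefSeq start behind the RSAD2 promoter match above is at 6877777, beyond the 5′ end of CMPK2 at 6866635 and outside that overlap. On the far side of CMPK2, 105 bases away on the same strand, is NRIR, a long non-coding RNA known as a negative regulator of the interferon response. NRIR had 15, 4 and 6 reads in vector and 34, 21 and 60 reads in TFCP2L1 libraries, a log2 fold change of 2.15 ± 0.59 (edgeR adjusted p = 0.0258). NRIR was no longer called when vector replicate 2 (0.0912), vector replicate 3 (0.120), TFCP2L1 replicate 1 (0.0696) or TFCP2L1 replicate 3 (0.109) was left out. The next gene beyond RSAD2, RNF144A, was not called (0.12 ± 0.13; edgeR adjusted p = 0.624). Elsewhere the flanking genes that could be tested were not called either. HES4 and AGRN beside ISG15 were at -0.03 ± 0.15 and -0.04 ± 0.09 on the log2 scale. TIMM10 beside UBE2L6 was at -0.03 ± 0.12, and TRAIP beside UBA7 at 0.11 ± 0.13. INKA1, on the other side of UBA7, had only 0 to 15 reads per library and an imprecise estimate of -0.67 ± 0.77. SERPING1 beside UBE2L6, TMEM191B beside USP18 and ACAN beside ISG20 were too low to test.

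Levels per gene length, by the lengths behind the deposited FPKM, set the members in an order that differed between the groups. Those lengths differ from the exon bases in GENCODE v29: 3755 against 7363 for ISG20, 1306 against 2197 for UBE2L6 and 4033 against 4766 for HERC5. For ISG15 they were 637 against 941, and for UBA7 3304 against 4545. The places of UBE2L6 and HERC5, and of USP18 and ISG20, therefore depend on the length used. So do the FPKM and rank of ISG15, its lead over HERC5 and the size of every ratio between genes below. In vector cells ISG15 exceeded the next gene, HERC5, by 10.01-fold, and HERC5 (41.9 FPKM), UBE2L6 (36.5), HERC6 (23.4) and ISG20 (11.5) followed without overlap between neighbours. USP18 (5.28) and RSAD2 (4.88) overlapped, and UBA7 (0.951) and CMPK2 (0.416) came last. In TFCP2L1 cells UBE2L6 (49.4 FPKM) and HERC5 (41.8) changed places, although their libraries overlapped, and CMPK2 (2.26) stood above UBA7 (1.25) in all 3 libraries. USP18 (12.3 FPKM) reached ISG20 (14.4), with overlap. The FPKM ratio of ISG15 to UBA7 was 460 ± 126 in vector and 455 ± 93.0 in TFCP2L1 cells, and that of ISG15 to UBE2L6 was 11.5 ± 0.594 and 11.5 ± 2.37. ISG15 over HERC5 was 10.04 ± 0.988 and 13.6 ± 2.65, with overlap. ISG15 over HERC6 was 17.9 ± 1.44 and 25.1 ± 5.10, without overlap, the highest vector library being at 19.3 and the lowest TFCP2L1 library at 20.03. In the other direction, ISG15 over USP18 was 80.3 ± 10.1 and 45.8 ± 7.86, without overlap.

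Differences between members were tested within libraries for 4 pairs, on the log2 ratio of their reads, which needs no scaling between libraries. With 3 against 3 libraries the exact two-sided permutation test cannot give a p under 0.1. The ratio of ISG15 to USP18 was 4.33, 4.70 and 4.54 in vector and 3.98, 3.54 and 3.601 in TFCP2L1 libraries. It was lower in every TFCP2L1 library than in any vector library, with a mean difference of -0.82 (exact permutation p = 0.1, adjusted over the pairs 0.2). The ratio of CMPK2 to RSAD2 was -3.24, -3.34 and -3.80 in vector and -2.27, -2.01 and -1.68 in TFCP2L1 libraries. It was higher by a mean of 1.47, or 2.77-fold, again without overlap (exact permutation p = 0.1, adjusted 0.2). UBE2L6 to UBA7 differed by 0.02 (exact permutation p = 1.0), with the libraries of vector spread from 3.601 to 4.39 about those of TFCP2L1. HERC5 to HERC6 differed by 0.05 (exact permutation p = 0.7), and its vector libraries ran from 0.64 to 0.95.

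**Figure D3:**
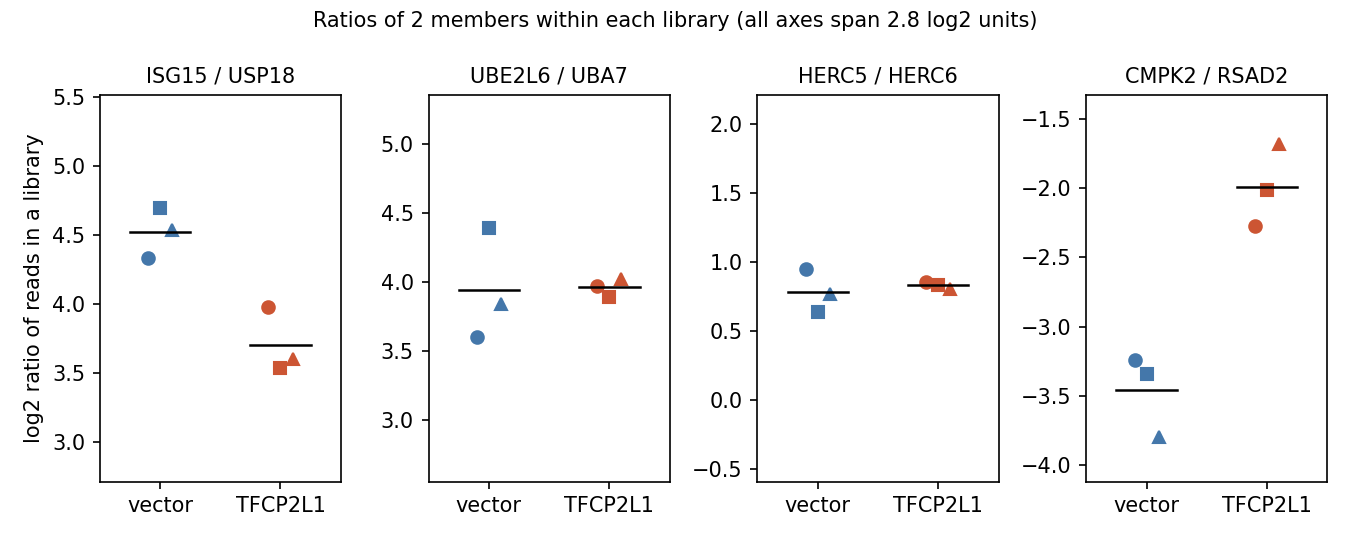
Log2 ratio of the reads of 2 members within each library for 4 pairs; circles, squares and triangles are replicates 1, 2 and 3, blue is vector, red is TFCP2L1 and black lines are group means. The groups are apart for ISG15 over USP18 and for CMPK2 over RSAD2 and overlap for the other 2 pairs.

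Leaving out single libraries, which also left fewer samples to fit, moved the smaller calls. Without vector replicate 3 only USP18, RSAD2 and CMPK2 were called, 3 members in place of 5, and without vector replicate 2 or TFCP2L1 replicate 2 there were 6, with ISG20 added. HERC5, HERC6 and UBA7 were not called in any of the 6 fits with a library left out.

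**Figure D4:**
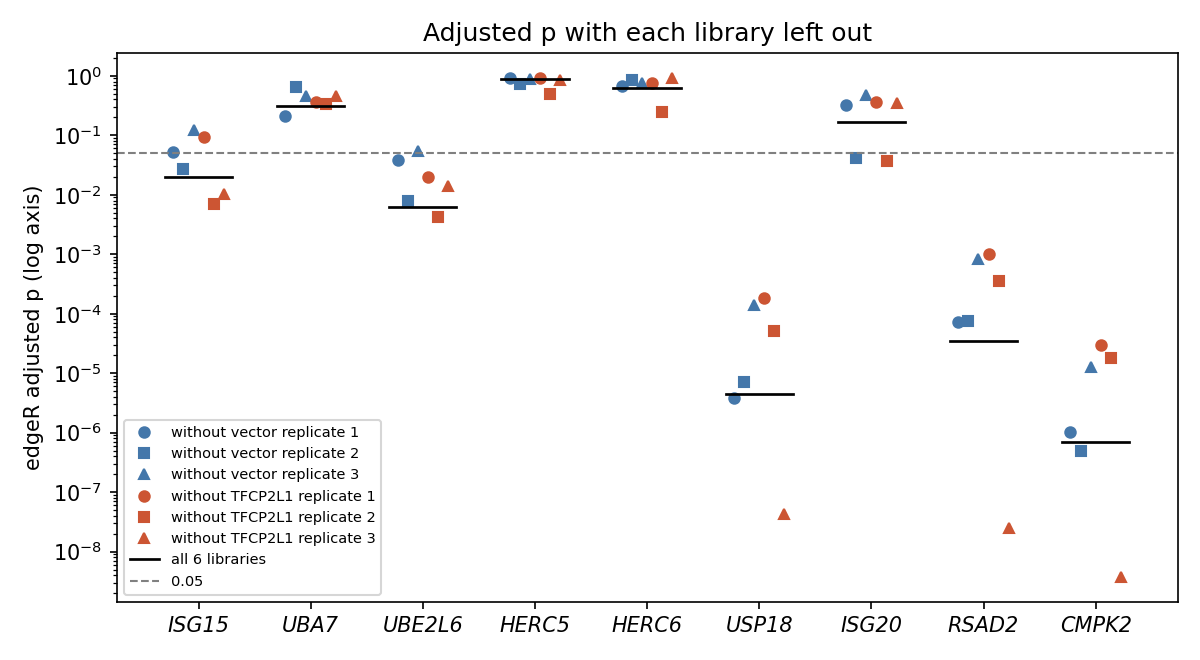
EdgeR adjusted p (log axis) of each gene with all 6 libraries (black line) and with each library left out (symbols); the dashed line is 0.05. USP18, RSAD2 and CMPK2 stay at or under 0.001003, ISG15, UBE2L6 and ISG20 cross the line and HERC5, HERC6 and UBA7 stay above it.

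Enzymes of the related ubiquitin-like systems are set beside all tested genes, of which 11.6% were called, 4.63% higher and 6.94% lower. Of the 9 other E1 enzymes and subunits tested, 1 was called, UBA2 of the SUMO system (0.28 ± 0.09; edgeR adjusted p = 0.0460), with a median log2 fold change of 0.12. Of 29 other E2 enzymes 0 rose and 1 fell, UBE2H (-0.27 ± 0.07; edgeR adjusted p = 0.0225). Of 10 other ubiquitin-like proteins, and of the 4 ubiquitin genes, edgeR called none. The UBA2 call was lost without any 1 of the libraries other than TFCP2L1 replicate 3 (adjusted p 0.119 to 0.151), and the UBE2H call without a vector library (0.110, 0.0629 and 0.0991) or without TFCP2L1 replicate 1 (0.0864). Among 19 nucleotide kinases other than CMPK2, TK1, the cytosolic thymidine kinase, rose (0.27 ± 0.09) and AK4, a mitochondrial adenylate kinase, fell (-0.27 ± 0.08), with edgeR adjusted p of 0.0478 and 0.0313. The TK1 call was lost without any vector library (0.118, 0.162 and 0.134) or without TFCP2L1 replicate 1 (0.176). The AK4 call was lost without any vector library (0.0924, 0.139 and 0.0836) or without TFCP2L1 replicate 1 (0.127) or 2 (0.0510). Of 7 radical SAM enzymes other than RSAD2 none was called, and MOCS1, of molybdenum cofactor synthesis, had the smallest p (0.26 ± 0.13; edgeR adjusted p = 0.232).

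**Figure D5:**
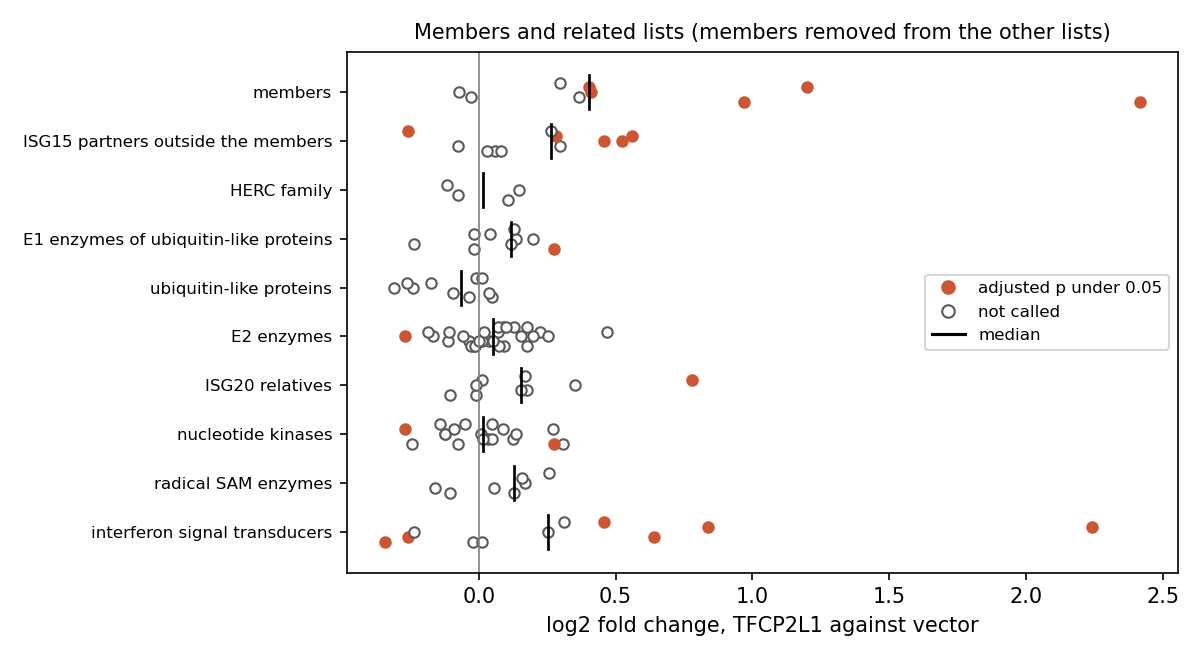
Log2 fold changes of the 9 genes and of related lists, from which they were removed; filled points passed an adjusted p of 0.05, each black line is a median, and height within a row has no meaning. The medians are 0.40 for the 9 genes, 0.12 for E1 enzymes, 0.05 for E2 enzymes, 0.02 for nucleotide kinases and 0.25 for interferon signal transducers.

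Partners of ISG15 and USP18 and the interferon pathway moved in both directions. Of 11 partners 4 rose and 1 fell, with a median of 0.27. For comparison, 4.63% of all tested genes were called higher and 6.94% lower. The RNA-binding IFIT5 (0.56 ± 0.09), the kinase PKR encoded by EIF2AK2 (0.52 ± 0.08), STAT2 (0.46 ± 0.08) and the ligase TRIM25 (0.28 ± 0.07) rose, and IFNAR2 fell (-0.26 ± 0.08; edgeR adjusted p = 0.0474). TRIM25 was not called once vector replicate 1 (0.0664) or 3 (0.0665) was left out. Of 11 signal transducers, which again include STAT2 and IFNAR2, 4 rose and 2 fell. The transcription factor IRF7 had 209, 195 and 172 reads in vector and 952, 810 and 1043 in TFCP2L1 libraries (2.24 ± 0.14; edgeR adjusted p = 1.86e-08). The feedback inhibitor SOCS1 rose (0.64 ± 0.17), while the receptor kinase JAK1 fell (-0.34 ± 0.09; edgeR adjusted p = 0.0178). The IFNAR2 call was lost without any single library (0.0537 to 0.180), the JAK1 call without the first (0.0557) or the third (0.0840) vector library or the first TFCP2L1 library (0.0889), and the SOCS1 call without the first (0.0807) or the third (0.112) vector library or the first (0.0525) or the third (0.0788) TFCP2L1 library.

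Among 36 other genes known to be induced by interferon, 27 rose and 2 fell, against 4.63% and 6.94% of all tested genes. The median change of the 36 was 0.73 on the log2 scale, and this list too was chosen with earlier results of these data known. Those that fell were IFI44 (-0.46 ± 0.09) and DDX60 (-0.58 ± 0.09). The largest rises were those of XAF1, with 0 reads in vector and 218 in TFCP2L1 libraries, at least 71.9-fold against 3 reads over the group, IFITM1 (5.23 ± 0.16) and MX2 (5.19 ± 0.34), all above CMPK2. The median is the same with XAF1 at that bound, and the list shares IFIT5 and EIF2AK2 with the partners. Of the interferon genes, the type III gene IFNL1 had 0, 1 and 6 reads in vector and 18, 36 and 10 in TFCP2L1 libraries (3.08 ± 0.85; edgeR adjusted p = 0.0270). Leaving out vector replicate 1 (0.113) or 2 (0.0858) ended that call, the estimate was 5.06 with vector replicate 3 left out, and IFNL1 was not among the tested genes with TFCP2L1 replicate 1 or 2 left out. The type I gene IFNB1 had 0, 0 and 5 reads in vector and 4, 5 and 4 in TFCP2L1 libraries and was too low to test. The only other interferon gene tested, the type I gene IFNE, had 39, 62 and 42 reads in vector and 43, 46 and 67 in TFCP2L1 libraries and was not called (0.09 ± 0.34; edgeR adjusted p = 0.914).

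The tested genes most like the mean profile of the 9 were sought over the 6 libraries by the root mean square difference of log2 CPM centred on the vector mean. The 5 nearest were RTKN2 (0.0407), LRATD2 (0.0705), BEST3 (0.0720), RGS4 (0.0807) and FMNL1 (0.0819). Each had a log2 fold change of 0.62 to 0.74, and the mean profile of the members was 0.64 to 0.69 above its vector mean in the TFCP2L1 libraries. That mean includes CMPK2 at 2.42 and lies above the members' median log2 fold change of 0.40. No member's own log2 fold change fell within 0.64 to 0.69, so the 5 genes resemble an average and no single member. Among the members, HERC5 and HERC6 were nearest to each other (0.0951), as were USP18 and RSAD2 (0.212), while CMPK2 was farthest from any other member (0.863 from USP18).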

How the data were processed

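Per the submitters' processing notes, reads were handled with fastp, HISAT2 and HTSeq and the build was GRCh38.p13; versions, annotation and strand handling are not stated in those sources. The authors deposited raw read counts per gene symbol and FPKM values for the same 21173 genes. The deposited FPKM equals count over gene length and library total, with 1 length per gene within 0.001%, so it is no independent measurement. Columns were matched to samples by group and replicate number in their names.

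Counts were compared with edgeR 4.0.16 (R 4.3.3): filterByExpr, TMM scaling, quasi-likelihood F-test with robust fit, two-sided, 1 fit of all 6 libraries. Standard errors are the log2 fold change over the square root of F. CPM are after TMM. For within-library ratios 0.5 was added to each count, and exact permutation tests used scipy 1.17.1. On simulated data drawn from its own fitted model, the comparison recovered nearly all of the largest changes put in. Those were larger than the changes of ISG15, UBE2L6 and UBA7, so that check does not bear on these genes. The members and gene lists were chosen with earlier results of these data known, and lists are described by counts and medians. Genes outside the members were named by rule: of each list up to 3 called genes by size of change, or else its gene of smallest p, the flanking genes in GENCODE v29 with a row, and the 5 nearest profiles; IFI44, DDX60, HHEX, PAX8, KRT8, KRT18, TG, SLC5A5, EPCAM, PTPRC, TRIM25, IFNAR2, JAK1, ITGAM, IFNE and IFNB1 were added after their values were seen. One gene named by that rule is not reported here. GENCODE v29 matched 16481 of 21173 symbols. Alternatives covered scaling, filters, DESeq2 1.42.0, limma 3.58.1 (voom, and log2 FPKM with pseudocounts 1 and 0.1), a replicate block and leaving out each library. No 2 replicates were alike within counting error (chi-square of 7.49 to 42.4 a gene).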

Additional observations from a re-analysis of the deposited data

How the results depend on the processing

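No member was called lower under any of the 15 alternatives, and USP18, RSAD2 and CMPK2 were called higher in all of them. The number of members called higher ran from 3 to 6, also over the fits with a library left out. ISG15 was not called by limma on log2(FPKM + 1) (adjusted p = 0.0943) or log2(FPKM + 0.1) (0.0921), and ISG20 was called without a filter on low counts (edgeR adjusted p = 0.0172). Over all genes, 668 were higher and 1002 lower, or 884 and 903 when scaled by library total only. Leaving out each library gave 298 to 765 higher and 621 to 1106 lower, with the fewest higher without vector replicate 1 and the fewest lower without vector replicate 3; fewer samples were fitted there. The edgeR fit with a replicate block gave 328 higher and 649 lower and the same number of members, 5. The labels do not say that same-numbered libraries were paired. Deviations of same-numbered libraries from their group means correlated at 0.07, -0.16 and -0.12. The largest correlation, 0.22, was between vector replicate 2 and TFCP2L1 replicate 3. Deviations within a group of 3 sum to 0, so such values cannot decide whether the samples were paired. The block result is given here only. In the within-library ratios, leaving out a library moved UBE2L6 to UBA7 between -0.16 and 0.24 (below 0 also at -0.035 without vector replicate 3 and -0.015 without TFCP2L1 replicate 3), HERC5 to HERC6 between -0.027 (without vector replicate 2) and 0.13, ISG15 to USP18 between -0.95 and -0.73 and CMPK2 to RSAD2 between 1.303 and 1.61. With 1 mismatch allowed in the ISRE core, 5 members held it, as did 37.7% of all genes. Low read numbers limit the precision of UBA7 and of CMPK2 in vector cells, and of NRIR, IFNL1 and IFNB1.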
